A study of Rattus norvegicus with 72 samples.

Results

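Adipose tissue of lactating rats was compared with adipose tissue of pregnant rats. The comparison pools standard gravity and hypergravity, a load above that of Earth, and takes gravity as a covariate. It used 19 of the 72 arrays of the series, taken by their labels except for 1 array left out on its marker values. These were 5 arrays of lactating rats at standard gravity (adipose_lac_standardG), 4 of lactating rats in hypergravity (adipose_lac_hyperG), 5 of pregnant rats at standard gravity (adipose_preg_standardG) and 5 of pregnant rats in hypergravity (adipose_preg_hyperG), so 9 stood against 10. The labels give neither strain, age, day of pregnancy or lactation, strength of the load nor fat depot, and name no treatment or allele. Array codes join a tissue letter, a rat and its gravity (S or H), and the same 20 codes recur in liver and mammary gland. The codes ran from A42S to A60H in pregnancy and from A201S to A219S in lactation, so stage and any difference between these series of rats cannot be told apart. Another lactating array in hypergravity, A210H, was left out because it carries mammary markers and looks exchanged with the mammary array of the same rat.

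White adipose tissue stores triglyceride in pregnancy and supplies fatty acids to the mammary gland in lactation. In rats, lipoprotein lipase activity and fatty acid synthesis of fat depots are known to fall at the onset of lactation while those of the mammary gland rise. Prolactin, growth hormone, insulin and glucocorticoids govern this switch, in part after translation, which an RNA measurement does not see.

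The adipocyte genes stood high on every array, in keeping with the tissue label. The mean of 18 adipocyte genes, among them Adipoq and Fabp4, lay between 9.76 and 10.9 log2 units on the 19 arrays, where array medians were 4.44 to 4.56. Markers of other cell types were clearly raised on 7 arrays. The mean of 16 skeletal muscle markers was 12.2 on A48S and 10.7 on A217H against 3.78 to 4.34 on the other 17. Smooth muscle and pericyte markers averaged 8.16 on A206H and 7.42 on A44S against 4.38 to 6.11 elsewhere. B cell and plasma cell markers averaged 6.93 on A56H and were next highest on A42S, and T cell and NK cell markers were highest on the same 2 arrays, against 3.39 to 4.61 on the other 17. A lactating array outside the 7, A216S, also had raised B cell markers at 4.57, where the remaining 16 read 3.05 to 3.71. Milk protein genes averaged 5.85 on A55H against 2.82 to 3.54 on the other 18. Mesothelial markers, which belong to the lining of abdominal fat, averaged 6.47 to 8.32 on all arrays but A48S. The stages share these arrays unevenly, with 5 of the 7 in pregnancy, so many of the list medians and gene values below are also given without them.

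**Figure D1:**
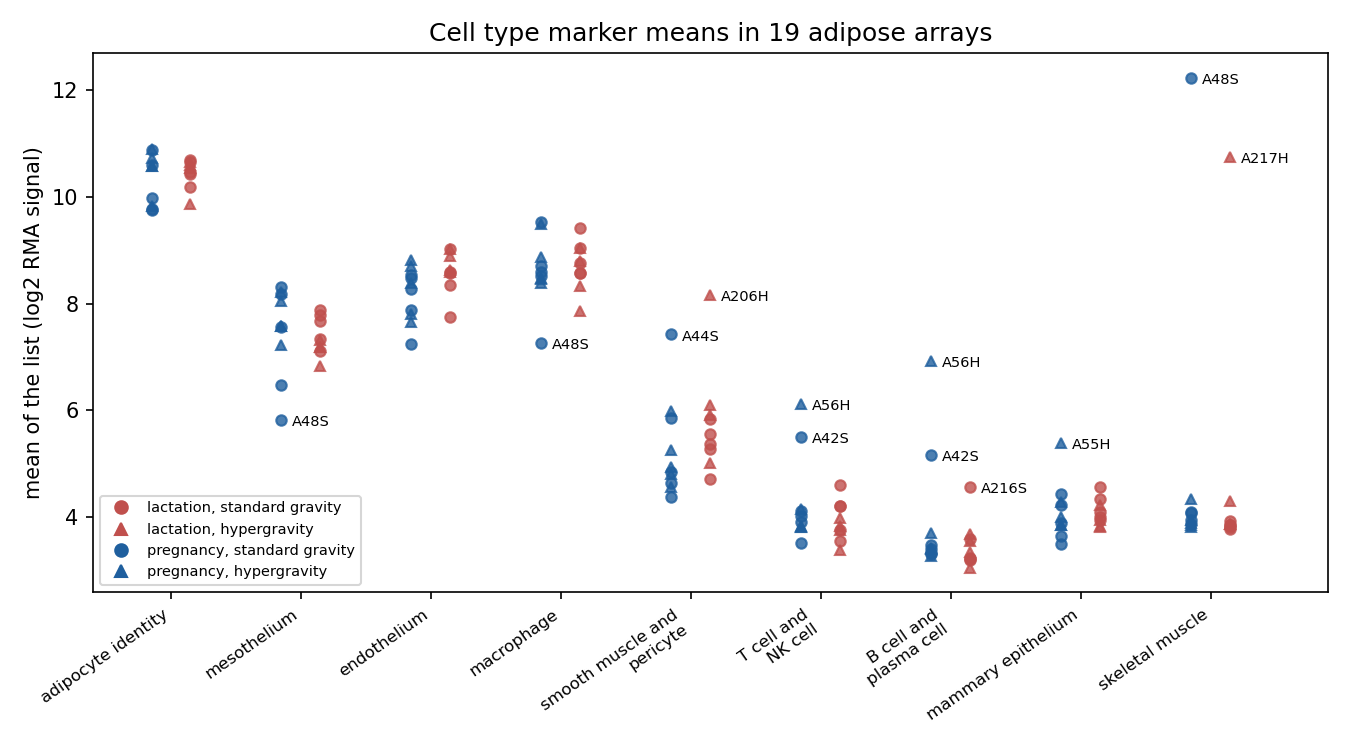
Mean log2 RMA signal of each cell type marker list on the 19 adipose arrays, with pregnant rats in blue, lactating rats in red, circles for standard gravity and triangles for hypergravity. The adipocyte mean lies between 9.76 and 10.9 on every array, while skeletal muscle markers reach 12.2 on A48S and 10.7 on A217H.

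Stage left almost no probe set past the threshold in adipose tissue. With limma and Benjamini-Hochberg adjustment over all 31042 probe sets, 1 had an adjusted p under 0.05, which is 0.00322%, and it is said below to be called. It was lower in lactation. At an unadjusted p under 0.05 stood 1875 probe sets (6.04%), of which 1070 were higher in lactation (3.45%) and 805 lower (2.59%). The unadjusted counts of every list below are to be read beside these shares. The arrays of the stages did not overlap at 2 probe sets (0.00644%). The median log2 difference over all probe sets was -0.015, and 67 of 14217 genes differed by more than 1 log2 unit, a 2-fold difference.

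The called probe set, 1383862_at, carries no gene symbol in the annotation used here. Its log2 signal had a low of 6.94, a median of 7.30 and a high of 7.69 on the lactating arrays and a low of 7.70, a median of 7.89 and a high of 8.07 on the pregnant arrays. All 9 lactating arrays lay below all 10 pregnant ones, the closest being A212H and A57S. The level fell by 0.63 log2 units (SE 0.09, 95% interval -0.82 to -0.44), or 1.55-fold, with an adjusted p of 0.0411 by limma. Its difference was -0.72 at standard gravity and -0.53 in hypergravity. The adjusted p was 0.188 without A48S and A217H and 0.226 without all 7 arrays with added markers, where the difference was -0.59. Leaving out single arrays gave 0 calls in 17 of 19 cases, 1 call without A212H and 2 without A57S.

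The data bound most stage differences in signal to under 2-fold. The 95% interval lay within 2-fold either way for 28751 probe sets (92.6%) and within 1.5-fold for 71.7%. Among the 15521 probe sets brighter than the median one, it lay within 2-fold for 89.2%. The median interval over all probe sets reached 0.30 log2 units to each side. Adipoq and Lpl had narrower intervals than this, and Pnpla2, Lipe and several lipogenic genes wider ones.

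**Figure D2:**
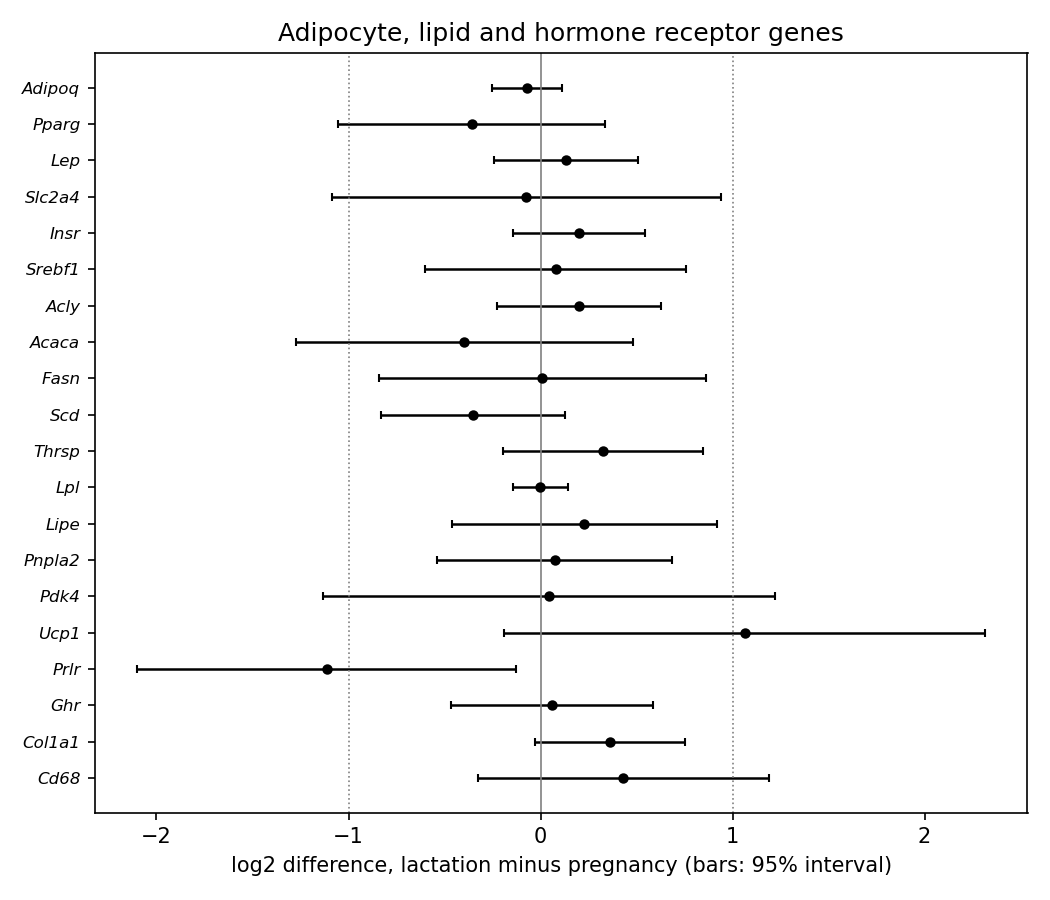
Log2 difference of lactation minus pregnancy for 20 adipocyte, lipid, hormone receptor, collagen and macrophage genes, with bars for the 95% interval and dotted lines at 2-fold. Lpl and Adipoq have the narrow intervals, Prlr lies to the left of 0 and Ucp1 has the widest interval.

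Lpl encodes lipoprotein lipase, which frees fatty acids from circulating triglyceride (GRCr8 chromosome 16, 25596205 to 25621928). Its level had a low of 12.32, a median of 12.42 and a high of 12.60 in lactation and a low of 12.15, a median of 12.47 and a high of 12.69 in pregnancy. The stages overlapped throughout. The difference was -0.0011 (SE 0.07, 95% interval -0.15 to 0.14; limma adjusted p 0.999). Adipoq, the adipokine adiponectin, differed by -0.07 (interval -0.25 to 0.11), Fabp4, the adipocyte fatty acid carrier, by 0.03 (-0.12 to 0.18), and Plin1, which coats the fat droplet, by 0.12 (-0.05 to 0.30). Signals of 12 and above lie near the top of the scale, where arrays can compress differences, and this was not tested.

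Genes that make fatty acids showed no called member among 27, and none had an unadjusted p under 0.05 either. The median difference of the list was 0.12, beside -0.0083 over all genes, and 23 members had a positive value. Fasn, fatty acid synthase (GRCr8 chromosome 10, 106570415 to 106588581), had a low of 9.39, a median of 11.21 and a high of 11.81 in lactation and a low of 9.48, a median of 10.70 and a high of 12.18 in pregnancy. Values spread over more than 2 log2 units within each stage. The difference was 0.01 with an interval from -0.84 to 0.86, which allows a level up to 1.82-fold higher or a fall of up to 0.84 log2 units. It was -0.94 at standard gravity and 1.08 in hypergravity, but the interaction of stage with gravity did not pass for Fasn (limma adjusted p 0.9997). A second Fasn probe set, at a mean of 9.91, differed by -0.36 (SE 0.59). Acaca, the acetyl-CoA carboxylase that makes malonyl-CoA, differed by -0.40 (-1.27 to 0.48), and Scd, which desaturates stearate, by -0.35 (-0.83 to 0.13). Acly, which supplies cytosolic acetyl-CoA, differed by 0.20 (-0.22 to 0.63), Thrsp, a regulator of lipogenesis, by 0.33 (-0.19 to 0.85), and Srebf1, a transcription factor that drives lipogenic genes, by 0.08 (-0.60 to 0.76). Slc25a1, the citrate carrier, differed by 0.61 (-0.20 to 1.42). Without the 7 arrays, which leaves 7 lactating and 5 pregnant ones, the list's median was -0.40 and Fasn stood at -0.83.

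Genes of fatty acid uptake had the highest share of positive values at an unadjusted p under 0.05 among the pathway lists. None of 16 was called, and 7 had an unadjusted p under 0.05, all higher in lactation, beside 3.45% over all probe sets. Their median difference was 0.36. Fabp5, a fatty acid binding protein of adipocytes and macrophages (GRCr8 chromosome 2, 93672451 to 93676186), had a low of 10.08, a median of 10.45 and a high of 11.06 in lactation and a low of 9.12, a median of 9.76 and a high of 10.86 in pregnancy. All 9 lactating arrays lay above the pregnant median, and 2 lay above every pregnant array. The difference was 0.69 (SE 0.20, interval 0.27 to 1.11; limma adjusted p 0.468). Slc27a1, a fatty acid transport protein, differed by 0.82 (0.20 to 1.43), Scarb1, a lipoprotein receptor, by 0.71 (0.11 to 1.31), and Cd36, the fatty acid translocase, by 0.46 (0.02 to 0.89). Gpihbp1, which holds the lipase on capillary walls, differed by 0.53 (0.01 to 1.05), and Angptl4, an inhibitor of the lipase, by 0.59 (0.07 to 1.11). The adjusted p of these 5 was 0.651 or more. The list's median was 0.50 at standard gravity, 0.17 in hypergravity and 0.17 without the 7 arrays, where Fabp5 stood at 0.49.

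Lipolysis and oxidation genes gave no call. Of 18 lipolysis genes, 1 had an unadjusted p under 0.05, Abhd5, the coactivator of adipose triglyceride lipase, at 0.34 (0.02 to 0.66; limma adjusted p 0.806). The median of the list was 0.10, and -0.14 without the 7 arrays. Pnpla2, that lipase itself, differed by 0.07 (-0.54 to 0.68), and Lipe, hormone-sensitive lipase, by 0.23 (-0.46 to 0.92). Adrb1, an adrenergic receptor, differed by -0.21. Among 19 genes of fatty acid oxidation none passed even without adjustment, and their median was 0.20, or -0.18 without the 7 arrays. Cpt1a, the carrier of fatty acids into mitochondria, differed by 0.37 and Ech1, an auxiliary enzyme of the pathway, by 0.31. None of 26 genes of oxidative phosphorylation passed without adjustment, and the intervals of all 26 lay within 2-fold. Cox5a and Cox5b, subunits of cytochrome oxidase, differed by 0.14 and 0.17. The median of that list was 0.03, and -0.32 without the 7 arrays.

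Of 18 adipocyte identity genes 0 were called, and 2 had an unadjusted p under 0.05, with a list median of 0.12, and of -0.12 without the 7 arrays. Cfd, the adipokine adipsin, differed by 0.42 (0.04 to 0.80; limma adjusted p 0.777), with 0.80 at standard gravity and -0.0069 in hypergravity, and Cd36 was given above. Pparg, the master regulator of adipocytes, differed by -0.36 (-1.05 to 0.34), and all 9 lactating arrays lay below the pregnant median of 9.65. Without the 7 arrays, which leaves 7 lactating and 5 pregnant ones, Pparg read 8.34 to 9.52 in lactation and 9.77 to 10.69 in pregnancy. The stages did not overlap there, but no probe set was called in that setting. Lep, leptin, lay between 2.73 and 4.22 on the 19 arrays, under every array median, and differed by 0.13 (-0.24 to 0.51). Its level can therefore not be followed here.

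**Figure D3:**
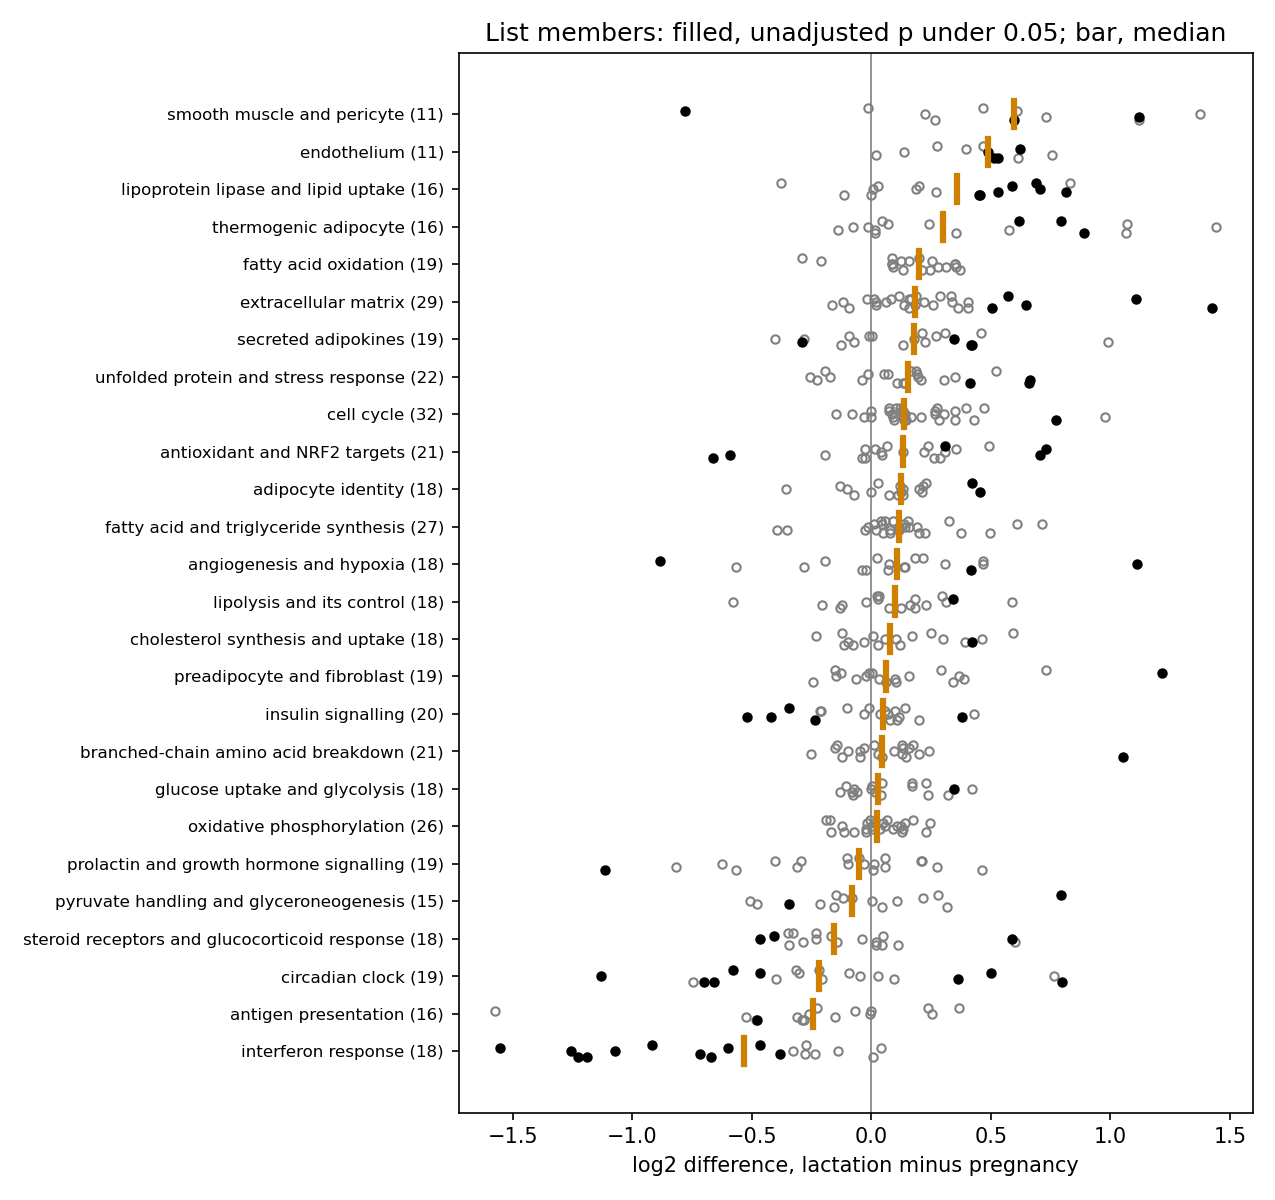
Log2 difference of lactation minus pregnancy for every measured member of 24 pathway lists and 2 vessel lists, with the number of members in brackets, filled points for an unadjusted p under 0.05 and a bar at the list's median. The interferon list lies to the left, with a median of -0.53 and 11 of 18 filled, and the lipid uptake list to the right, with 0.36 and 7 of 16. No member was called.

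Glucose and insulin genes held no called member. Of 20 insulin signalling genes, 1 was higher and 4 lower at an unadjusted p under 0.05, beside 3.45% and 2.59% over all probe sets. The list median was 0.05, and -0.05 without the 7 arrays. Akt1, a kinase that relays the insulin signal, had a low of 9.24, a median of 9.35 and a high of 10.001 in lactation and a low of 8.38, a median of 9.06 and a high of 9.33 in pregnancy, and 6 lactating arrays lay above all pregnant ones. It differed by 0.38 (0.13 to 0.63; limma adjusted p 0.529). Pdpk1, the kinase that activates Akt, differed by -0.23, Irs1, the docking protein of the receptor, by -0.42, and Grb14, an inhibitor of the receptor, by -0.52. Insr, the receptor itself, differed by 0.20 (-0.14 to 0.54). Slc2a4, the insulin-responsive glucose transporter shared by fat and muscle, differed by -0.08 (-1.09 to 0.94), with -1.51 at standard gravity and 1.54 in hypergravity. Its interaction of stage with gravity was not called. Of the pregnant arrays, A57S, without raised muscle markers, read highest at 10.26, and A48S, with them, was next at 9.80. A217H, with raised muscle markers too, read 9.15 within a group from 8.84 to 9.59. Without A48S and A217H the pooled difference of Slc2a4 was 0.016. Whether muscle RNA contributed to the Slc2a4 values was not tested. Of 18 glucose uptake and glycolysis genes, 1 passed without adjustment, Hk1, a hexokinase, at 0.35, and Pfkl, a phosphofructokinase, stood at 0.32. The median of that list was 0.03, and -0.17 without the 7 arrays.

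In pyruvate handling and glycerol use, 1 of 15 genes was higher and 1 lower without adjustment. Gk, glycerol kinase, had a low of 5.56, a median of 6.05 and a high of 6.72 in lactation and a low of 4.33, a median of 5.38 and a high of 6.31 in pregnancy, a difference of 0.79 (0.29 to 1.299; limma adjusted p 0.486). Every lactating array lay above the pregnant median. Pdp1, which activates pyruvate dehydrogenase, differed by -0.35, and Pdk4, which inhibits it, by 0.04 (-1.13 to 1.22). The highest Pdk4 value, 10.58, was on A48S. The median of the pyruvate list was -0.08, and -0.37 without the 7 arrays. Of 18 cholesterol genes, 1 passed without adjustment, Srebf2, the regulator of the pathway, at 0.42, and Ebp, a sterol isomerase, stood at 0.46. Of 21 genes of branched-chain amino acid breakdown, Bcat1, a cytosolic transaminase, stood at 1.05 (0.32 to 1.78; limma adjusted p 0.601), and Oxct1, a ketone-using enzyme, at 0.18. Without the 7 arrays the cholesterol median went from 0.08 to -0.30 and that of branched-chain amino acid breakdown from 0.05 to -0.36.

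Receptors and targets of the lactogenic hormones gave no call among 19 genes, and 1 had an unadjusted p under 0.05. Prlr, the prolactin receptor (GRCr8 chromosome 2, 60861391 to 61051883), had a low of 3.56, a median of 4.45 and a high of 6.10 in lactation and a low of 4.07, a median of 5.77 and a high of 7.67 in pregnancy. The stages overlapped, with 6 of 9 lactating arrays below the pregnant median and 2 below every pregnant array. The difference was -1.11 (SE 0.47, interval -2.10 to -0.13; unadjusted p 0.0291 and adjusted p 0.772 by limma). It was -0.83 at standard gravity, -1.43 in hypergravity and -1.67 without the 7 arrays. Prlr has 3 probe sets, and the other 2 lay lower, at means of 4.16 and 3.02 under the array medians, with differences of -0.20 and -0.11. Ghr, the growth hormone receptor, differed by 0.06 (-0.47 to 0.58), and Cish, an inhibitor induced by both receptors, by -0.82 (-1.70 to 0.07). Of 18 steroid receptor and glucocorticoid response genes, 1 was higher and 2 lower without adjustment. Klf9, a glucocorticoid-induced factor, differed by -0.41 with all 9 lactating arrays below the pregnant median.

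Clock genes had values in both directions. None of 19 was called, and 3 were higher and 5 lower at an unadjusted p under 0.05, beside 3.45% and 2.59% over all probe sets. Nr1d2, a repressor of Bmal1 (GRCr8 chromosome 15, 9955034 to 9981329), had a low of 8.62, a median of 9.19 and a high of 9.54 in lactation and a low of 9.28, a median of 9.73 and a high of 10.25 in pregnancy. The 9 lactating arrays lay below the pregnant median and 7 of them below every pregnant array. The difference was -0.58 (SE 0.13, interval -0.84 to -0.32; limma adjusted p 0.331). Hlf, an output factor, differed by -1.13 (-1.69 to -0.57), Per3 by -0.66, Dbp, another output factor, by -0.70 and Per1, a repressor of the core loop, by -0.47. Bmal1, the activator of the loop, differed by 0.80 (0.29 to 1.31), its partner Clock by 0.36 and Nfil3 by 0.50. The adjusted p of these 7 was 0.331 or more. Bmal1 lay at 3.35 to 4.73 on the pregnant arrays, near or under the array medians. The labels give no hour of collection, so stage and hour cannot be told apart.

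Interferon-stimulated genes had the lowest median of the lists, -0.53, and 16 of 18 values were negative. None was called, and 11 of 18 had an unadjusted p under 0.05, all lower in lactation, beside 2.59% over all probe sets. Irf7, the transcription factor that amplifies the interferon response (GRCr8 chromosome 1, 205796956 to 205800543), had a low of 6.30, a median of 7.26 and a high of 8.84 in lactation and a low of 7.65, a median of 8.19 and a high of 9.93 in pregnancy. On 8 of 9 lactating arrays it lay below every pregnant array, and A219S was the exception. The difference was -1.23 (SE 0.29, interval -1.84 to -0.61; limma adjusted p 0.331). Usp18, which removes ISG15 from proteins, differed by -1.25, Ifit3, an antiviral RNA-binding protein, by -1.19, Mx1, an antiviral GTPase, by -1.07 and Oas1a, which senses double-stranded RNA, by -0.92. Their adjusted p was 0.362 or more. The highest Irf7 value was on A42S, which also has added lymphocyte markers. Without A42S and A56H, Irf7 stood at -1.02 (adjusted p 0.378) and the list's median at -0.37, and without all 7 arrays at -1.17 and -0.44. These genes are known to respond together, so their number is not that of independent observations.

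Antigen presentation genes had a median of -0.24 among 16, or -0.05 without the 7 arrays, with 0 called and 1 lower without adjustment, Tap2, the peptide transporter, at -0.48 (-0.78 to -0.18; limma adjusted p 0.476). RT1-Bb, a class II chain, stood at -1.58 (-3.20 to 0.05), with values from 3.09 to 8.77. RT1-S3, a class I gene (GRCr8 chromosome 20, 2675463 to 2680229), was chosen after its values were seen. It had a low of 6.27, a median of 7.86 and a high of 8.46 in lactation and a low of 8.31, a median of 9.03 and a high of 9.95 in pregnancy. On 7 of 9 lactating arrays it lay below every pregnant array. The difference was -1.39 (SE 0.26; limma adjusted p 0.227), its 4 probe sets ranged from -1.39 to -1.19, and it stood at -0.92 without the 7 arrays. Class I genes have near-identical copies that can share these probes, so the assignment is uncertain. T cell and NK cell markers had a median of -0.37, with 1 of 14 higher without adjustment, and that median was -0.05 without A42S and A56H. B cell and plasma cell markers had a median of -0.45 and 0.17 without the 7 arrays. Macrophage markers had a median of 0.09 with 0 of 15 passing unadjusted, and Cd68, a lysosomal macrophage marker, stood at 0.43 (-0.32 to 1.19).

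Vessel and matrix genes were mostly positive. All 11 endothelial markers had a positive difference, with a median of 0.49, and 0 were called. At an unadjusted p under 0.05, 4 of them were higher, beside 3.45% over all probe sets. Tie1 and Pecam1, endothelial surface proteins, differed by 0.62 (0.18 to 1.07; limma adjusted p 0.617) and 0.51 (0.07 to 0.96). The endothelial median was 0.78 without the 7 arrays. In these bulk samples more cells of a type and more RNA per cell cannot be told apart. Rgs5, a pericyte marker, had a low of 5.12, a median of 6.15 and a high of 6.54 in lactation and a low of 3.78, a median of 4.87 and a high of 6.08 in pregnancy, and 5 lactating arrays lay above all pregnant ones. It differed by 1.12 (SE 0.26, interval 0.57 to 1.67; limma adjusted p 0.331), and by 1.18 without A44S and A206H, the arrays with added smooth muscle. Kcnj8, a pericyte channel, stood at 0.60. Of the 11 smooth muscle and pericyte markers 0 were called. At an unadjusted p under 0.05, 2 were higher, Rgs5 and Kcnj8, and 1 was lower, Mcam, and all members ran from -0.78 to 1.37. The median of this list was 0.60 with both gravities pooled, -0.04 at standard gravity and 1.24 in hypergravity. Angpt2, which loosens vessel walls, stood at -0.88, Aplnr, the apelin receptor, at 1.11 and Vegfa, the vascular growth factor, at 0.42.

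Of 29 matrix genes 0 were called and 5 were higher without adjustment, beside 3.45% over all probe sets. Timp1, an inhibitor of matrix proteases (GRCr8 chromosome X, 3766509 to 3772578), had a low of 8.59, a median of 9.001 and a high of 10.08 in lactation and a low of 5.88, a median of 8.07 and a high of 8.92 in pregnancy. On 7 of 9 lactating arrays it lay above every pregnant array. The difference was 1.42 (SE 0.37, interval 0.64 to 2.20; limma adjusted p 0.37), and 1.36 without the 7 arrays. The list's median was 0.18, and 0.09 without them. Fbn1, which builds microfibrils, differed by 0.57, Loxl1, which crosslinks elastin, by 0.65 and Col1a1, the main fibrillar collagen, by 0.36 (-0.03 to 0.75). A second Col1a1 probe set, at a mean of 10.86, differed by 0.76 (SE 0.31, unadjusted p 0.0261 and adjusted p 0.764 by limma). In the fibroblast list Sfrp1, a secreted Wnt antagonist, stood at 1.21 and Dpp4, a marker of adipocyte progenitors, at 0.73, the latter with its lowest value, 4.97, on A48S.

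Stress and growth lists gave no call. In the unfolded protein list 3 of 22 were higher without adjustment, led by Hyou1 and Sdf2l1, chaperones of the endoplasmic reticulum, both at 0.66 (limma adjusted p 0.617). In the antioxidant list 3 of 21 were higher and 2 lower. Hmox1, which degrades heme, had a low of 7.43, a median of 7.95 and a high of 8.85 in lactation and a low of 6.58, a median of 7.37 and a high of 7.89 in pregnancy, a difference of 0.70 (0.33 to 1.07; limma adjusted p 0.364). Gsta1, a glutathione transferase, stood at -0.66. Without the 7 arrays the median of the unfolded protein list went from 0.15 to 0.03 and that of the antioxidant list from 0.13 to -0.0027. Of 32 cell cycle genes 1 passed without adjustment, Cdc45, a replication factor, at 0.77, and Mcm5 of the replicative helicase stood at 0.39.

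Thermogenic genes were uneven between arrays. Of 16, 0 were called and 3 were higher without adjustment, with a median of 0.30, and of 0.09 without the 7 arrays. Ucp1, the uncoupling protein of brown and beige adipocytes, lay between 3.61 and 5.03 in pregnancy, under or near the array medians. In lactation it read 8.73 on A202S, 7.61 on A201S, 6.01 on A212H and 5.14 on A206H, and 3.51 to 3.87 on the other 5 arrays. The difference was 1.06 (-0.19 to 2.32; limma adjusted p 0.853), so 4 arrays carry it. Prdm16, a regulator of brown fat, stood at 0.62 and Slc27a2, an acyl-CoA synthetase, at 0.89. Fgf21, a hormone of fasting, stood at 0.35 with levels of 2.87 to 4.34, under the array medians.

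Outside the lists, the 12 genes with the smallest p were picked after their values were seen, and none was called. Fam167b, a gene of unclear function (GRCr8 chromosome 5, 147205018 to 147206660), had a low of 6.09, a median of 7.05 and a high of 7.65 in lactation and a low of 4.01, a median of 5.57 and a high of 6.23 in pregnancy. On 8 of 9 lactating arrays it lay above every pregnant array. The difference was 1.49 (SE 0.27, interval 0.93 to 2.04; limma adjusted p 0.215), or 2.80-fold, and 2.01 without the 7 arrays. Serpina3n, a secreted protease inhibitor of the acute phase (GRCr8 chromosome 6, 129088392 to 129095950), had a low of 7.49, a median of 9.12 and a high of 10.84 in lactation and a low of 5.78, a median of 7.50 and a high of 8.64 in pregnancy. On 7 lactating arrays it lay above every pregnant array. The difference was 1.88 (SE 0.38, interval 1.09 to 2.67; limma adjusted p 0.275), or 3.67-fold, and 1.85 without the 7 arrays. Arhgap19 was the other probe set without overlap, at 0.40 (limma adjusted p 0.215), but at levels of 2.76 to 3.76 under the array medians. The others were Tppp3 at 1.10, Kazald1 at 0.84, Cnpy4 at 0.67, Pigl at 0.55, Rfc3 at 0.42, Fbxl4 at -0.78 and Cabcoco1 at -1.38, beside RT1-S3 and Nr1d2. A second Fbxl4 probe set, at a mean of 3.32 under the array medians, stood at -0.20.

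**Figure D4:**
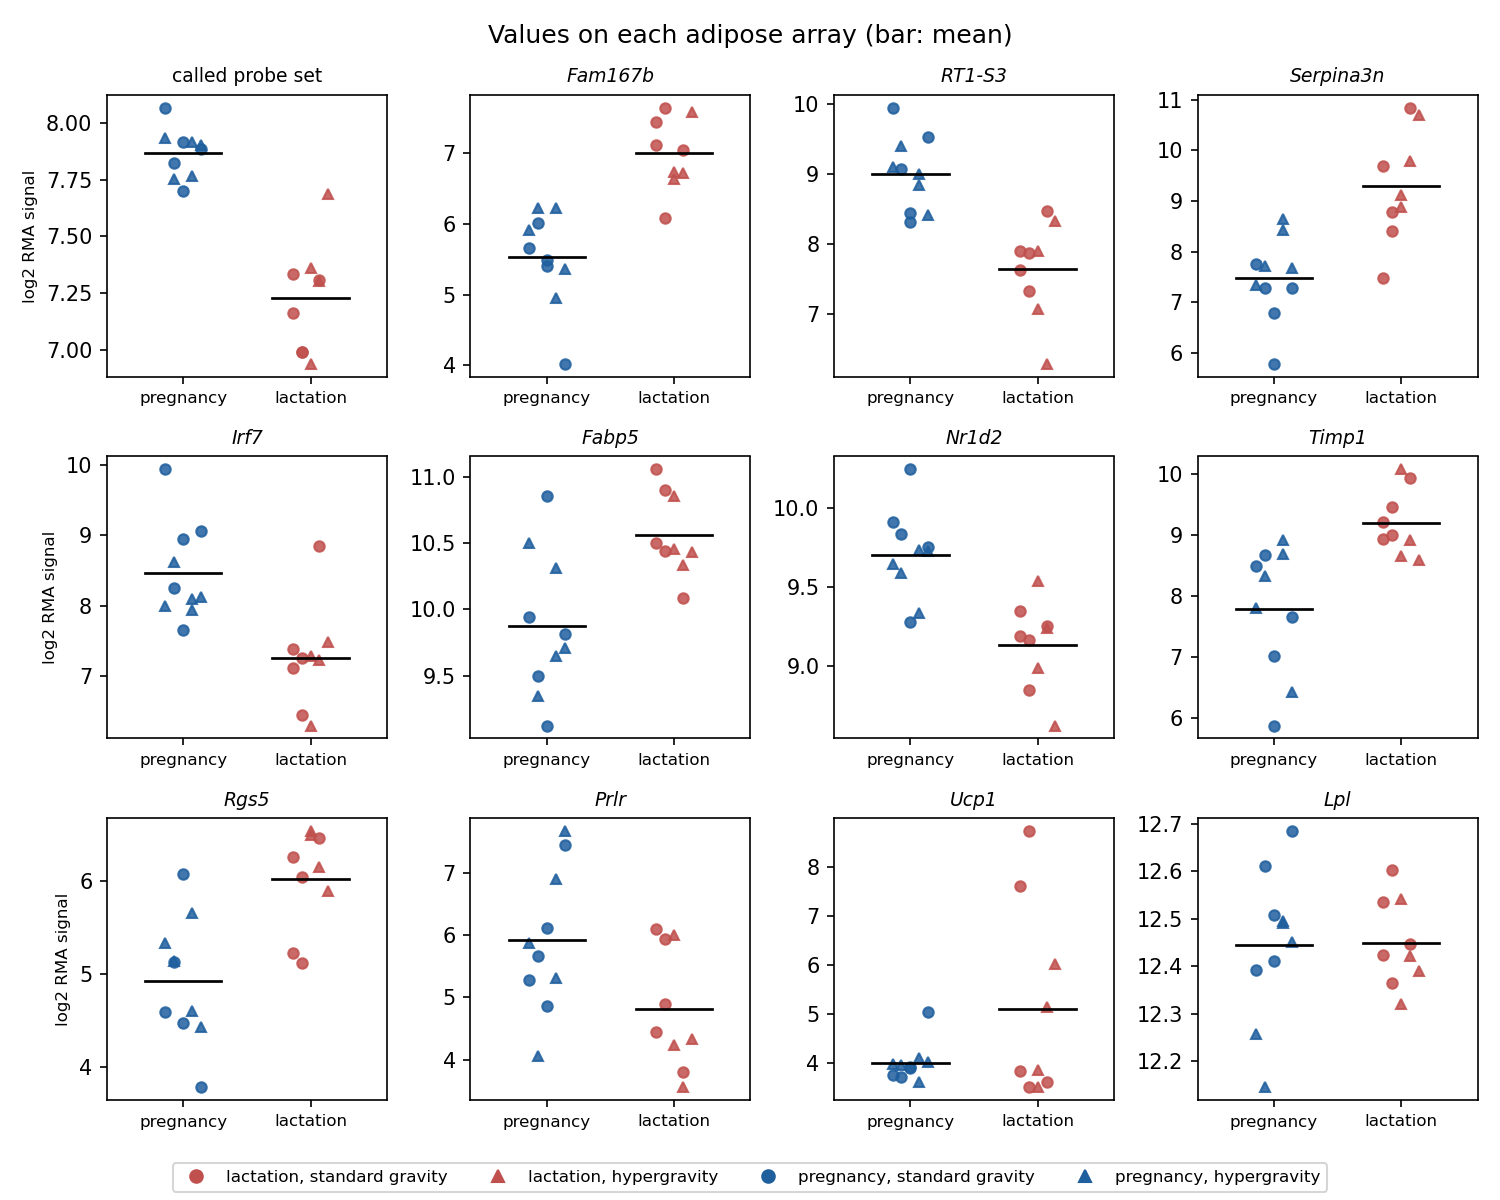
Log2 RMA signal of the called probe set and 11 genes on each adipose array, with pregnant rats in blue, lactating rats in red, circles for standard gravity, triangles for hypergravity and a bar at the mean. The stages are apart at the called probe set, nearly apart for Fam167b, Irf7, RT1-S3 and Timp1, and overlap fully for Lpl, while Ucp1 is raised on 4 lactating arrays.

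Whether the stage difference itself depended on gravity was tested as an interaction. It was called at 0 probe sets (0%), with a smallest limma adjusted p of 0.148, and 1055 stood at an unadjusted p under 0.05. A missed threshold does not show that the stage differences are alike, since each rests on 4 or 5 arrays a side.

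The same rats gave liver and mammary gland, so the stage difference of adipose tissue was set against theirs in 1 fit of 58 arrays, without M210H and A210H. The adipose and liver differences were called different at 322 probe sets (1.04%), 207 where the adipose difference was the higher and 115 where it was the lower. Without the rat of A217H the count was 213. The adipose and mammary differences were called different at 9357 (30.1%), 4922 where the adipose difference was the higher and 4435 where it was the lower. At 9088 of the latter the difference in adipose tissue was the smaller in size.

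Against liver, where 1.04% of all probe sets were called, 4 of 27 fatty acid synthesis genes and 2 of 16 uptake genes were called. In all of these the stage difference, not the level, was the higher in adipose tissue. Of 19 oxidation and 18 cholesterol genes 0 were called. Fads2, a fatty acid desaturase, differed by 0.19 between the stages in adipose tissue and fell by 2.57 in liver. These stage differences lay 2.76 apart (SE 0.51, limma adjusted p 0.0012). Adipose Fads2 had means of 3.48 in lactation and 3.29 in pregnancy, under the array medians, so a fall there could be hidden. Fabp5 stood at 0.69 in adipose tissue and fell by 1.40 in liver, a tissue difference of 2.09 (SE 0.32; adjusted p 0.00013). Cd36 stood at 0.46 in adipose tissue against -1.12 in liver, Pnpla3, a lipid-remodelling enzyme, at 0.72 against -1.81, and Pgd, which makes NADPH, at 0.15 against -0.90. Car3, a carbonic anhydrase abundant in fat, stood at -0.10 in adipose tissue and rose by 1.86 in liver. Its adipose means of 12.6 and 12.7 lie near the top of the scale, where compression was not tested. Ptger3, a prostaglandin receptor that curbs lipolysis, stood at -0.02 against 1.61, and Bcl6, a repressor opposed by Stat5, at 0.21 against 1.45. Fgf21 at 0.35 against -1.55, Xbp1, a factor of the unfolded protein response, at 0.11 against -0.78, Hmox1 at 0.70 against -0.36 and Abhd5 at 0.34 against -0.38 also differed between the tissues. Without A48S and A217H, the adjusted p of Abhd5, Pgd, Bcl6 and Hmox1 was 0.0504, 0.0804, 0.0754 and 0.0677. With the rat as a block, that of Abhd5, Pgd and Hmox1 was 0.0577, 0.0690 and 0.0502. Serpina3n, at 1.88 in adipose tissue, stood at 0.0076 in liver, where its mean was 11.9, a tissue difference of 1.87 (adjusted p 0.0112). Fam167b, Cabcoco1 and Rgs5 differed from liver as well, by 1.55, -1.58 and 1.43.

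Against mammary gland, where 30.1% of all probe sets were called, 7 of 18 cholesterol genes were called (38.9%), a share near that of all probe sets. In all 7 the stage difference, not the level, was the lower in adipose tissue. Insig1, the sterol sensor, differed by 0.12 in adipose tissue and rose by 3.12 in mammary gland, a tissue difference of -2.996 (SE 0.38; limma adjusted p 1.9e-08). Cyp51, Idi1 and Msmo1, enzymes of cholesterol synthesis, stood at 0.0078, 0.17 and -0.12 against 2.95, 2.59 and 1.85. Of 19 prolactin and growth hormone genes, 3 were called with the higher and 6 with the lower stage difference in adipose tissue (47.4%). Prlr stood at -1.11 in adipose tissue and rose by 1.13 in mammary gland, a tissue difference of -2.24 (SE 0.56; adjusted p 0.0013). Stat5a and Stat3, which relay prolactin and cytokine signals, stood at 0.21 and 0.46 against 1.75 and 1.91. Of 19 oxidation genes, 6 were called with the higher and 1 with the lower stage difference in adipose tissue (36.8%), near the share of all probe sets. The called ones with the largest tissue difference, Eci1, Acaa2, Acadvl and Cpt1a, stood at 0.35, 0.09, 0.28 and 0.37 against -1.76, -1.99, -1.07 and -1.16. Of 18 adipocyte identity genes, 4 were called with the higher and 2 with the lower stage difference in adipose tissue (33.3%), also near that share. Among these, Pnpla2, Plin4 and Trarg1 fell by 1.17, 0.98 and 0.91 in mammary gland and stood at 0.07, 0.20 and 0.21 in adipose tissue. Fabp4 rose by 1.38 in mammary gland against 0.03. Adipose means of Fabp4 (12.6 in both stages) and Insig1 (12.3 and 12.2) lie near the top of the scale, where compression was not tested. Igfbp3, which binds IGF1, stood at -0.30 against -1.55. With A210H and M210H kept as labelled, the adjusted p of Pnpla2, Plin4, Trarg1, Prlr, Stat5a and Igfbp3 was 0.304, 0.841, 0.929, 0.126, 0.127 and 0.714.

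Several genes that led the adipose comparison without passing it did pass in another tissue of the same rats. Over all 31042 probe sets, 1109 were called for stage in liver and 13163 in mammary gland, so a pass in mammary gland is common. Of the genes looked up, Fbxl4, Kazald1, Nr1d2, Rfc3, Tppp3, Cnpy4, Hlf and Rgs5 passed in neither tissue. Irf7 fell by 1.76 in liver (limma adjusted p 3.3e-06) and by 3.32 in mammary gland (5.4e-08), beside -1.23 in adipose tissue. The adipose and liver differences of Irf7 lay 0.54 apart (SE 0.35; adjusted p 0.709), while those of adipose tissue and mammary gland lay 2.09 apart and were called different, as were those of Ifit2, Oasl and Ifi44 at 2.06, 1.59 and 1.10. These were the 4 called ones of 18 interferon genes (22.2%), a share under the 30.1% of all probe sets. Usp18 fell by 1.76 in liver and by 2.15 in mammary gland. RT1-S3 fell by 0.78 in liver and by 1.19 in mammary gland, beside -1.39. The called probe set fell by 0.58 in liver (adjusted p 0.0362) and by 1.499 in mammary gland, beside 0.63 in adipose tissue. Fam167b rose by 2.01 in mammary gland, where Cabcoco1 fell by 1.34, Bmal1 rose by 1.58 and Timp1 rose by 1.04. Pigl and Serpina3n went the other way in mammary gland. Pigl fell there by 2.20 (limma adjusted p 3.7e-06) beside 0.55 in adipose tissue, and Serpina3n by 1.12 (0.0094) beside 1.88. Hlf, Tppp3 and Kazald1 stood at 0.16, -0.07 and 0.06 in mammary gland. The stage differences of Pigl, Serpina3n, Hlf, Tppp3 and Kazald1 differed between adipose tissue and mammary gland by 2.75, 2.998, -1.29, 1.16 and 0.78. The tissues share their rats, so these values are not independent of one another.

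**Figure D5:**
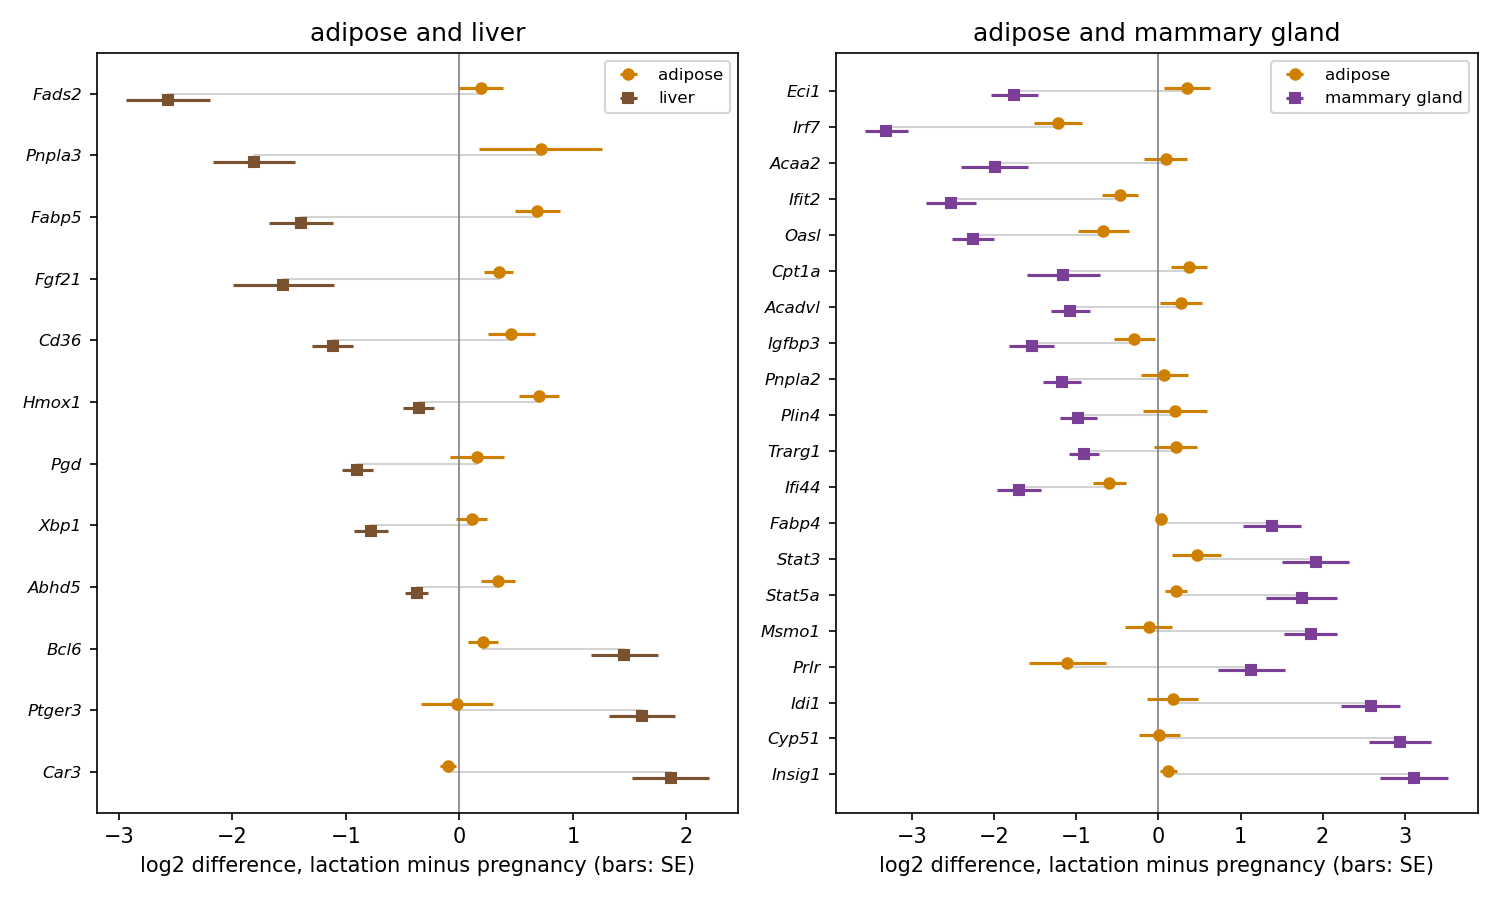
Log2 difference of lactation minus pregnancy in adipose tissue beside liver (left) and mammary gland (right) for a choice of pathway list members whose stage difference differed between the tissues, with bars for 1 SE. The adipose values lie nearer 0 for most genes, and among the genes drawn Irf7 and Prlr have adipose values beyond 1 in size.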

How the data were processed

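The authors deposited 1 table of log2 signals from RMA for 31042 probe sets of a rat expression array, RMA being named in the submitters' processing notes. RMA corrects background, applies quantile normalization and summarises probes, which can compress high and low signals; its version was not given in the sources used here. Per the labels' protocols, adipose RNA was extracted with RNeasy Lipid and the other tissues with TRIzol, and 25 ng was amplified with NuGEN Ovation. For arrays, their number limits the precision.

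The 19 adipose arrays were fitted with limma 3.58.1 in R 4.3.3 (lmFit, eBayes; stage plus gravity), and p-values are two-sided and adjusted by Benjamini and Hochberg over all probe sets. The interaction used a model of 4 groups, and tissue contrasts used stage and gravity within each tissue over 58 arrays. Scripts were tested on simulated data. The GEO annotation gave 20826 probe sets 1 symbol, 436 several and 9780 none, and 20758 matched RefSeq GRCr8. A gene is its brightest single-symbol probe set. Of 707 members of 39 gene lists, 635 had a probe set. Nothing was filtered out.

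The comparison, the lists and the tests were chosen with earlier results of these data known. The rule names 20 genes always given and, per described list, up to 4 called members or else the 2 with the smallest p. All other genes, among them further list members, the 12 leading genes and those set beside liver or mammary gland outside this rule, were chosen after their values were seen. No gene was called with a symbol, so no promoter is shown.

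Arrays of 1 code were taken as 1 rat, as the codes imply. Residuals of a rat's adipose array correlated with those of its liver at a median of 0.155 (-0.030 to 0.322 over 19 rats, 14 over 0.1) and of its mammary gland at 0.125 (0.0044 to 0.330). Nothing says that rats were housed or processed separately, so p-values measure the spread between arrays. Alternatives covered arrays left out, covariates, weights, filters, scaling and the rat as block.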

Additional observations from a re-analysis of the deposited data

Results flagged for a closer look

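On 192 sets of arrays of 1 stage, 24 held an array far from the nearest other (Dixon's test); chance marks about 1 set in 20. Among marker means these were B cells at 4.57 on A216S in lactation and 6.93 on A56H in pregnancy, skeletal muscle at 10.7 on A217H and 12.2 on A48S, smooth muscle at 8.16 on A206H and 7.42 on A44S, macrophages at 7.26 on A48S, and mammary epithelium at 5.39 on A55H. Array A48S also stood apart for Dpp4 at 4.97, Ebp at 6.35, Hyou1 at 5.14, Oxct1 at 10.2 and Pdk4 at 10.6. A219S did so for Irf7 at 8.84, Thrsp at 11.3 and Cox5a at 11.4, A201S for Akt1 at 10.001 and Pdpk1 at 9.99, A44S for Bcat1 at 9.45 and Rfc3 at 4.19, A217H for Cd36 at 9.42, A59H for RT1-Bb at 3.53, A57S for Slc25a1 at 8.79 and A52S for Ucp1 at 5.03.

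The stage difference differed by test between adipose tissue and liver (adipose minus liver, log2) for Car3 at -1.96, Cd36 at 1.57, Fads2 at 2.76, Pnpla3 at 2.53, Pgd at 1.06, Ptger3 at -1.63, Abhd5 at 0.72, Fabp5 at 2.09, Fgf21 at 1.90, Bcl6 at -1.24, Xbp1 at 0.89, Hmox1 at 1.06, Fam167b at 1.55, Serpina3n at 1.87, Cabcoco1 at -1.58 and Rgs5 at 1.43. Against mammary gland it differed for Fabp4 at -1.35, Pnpla2 at 1.25, Plin4 at 1.17, Trarg1 at 1.12, Eci1 at 2.11, Acaa2 at 2.08, Cpt1a at 1.53, Acadvl at 1.35, Insig1 at -2.996, Cyp51 at -2.94, Idi1 at -2.41, Msmo1 at -1.97, Prlr at -2.24, Stat5a at -1.53, Stat3 at -1.45, Igfbp3 at 1.25, Irf7 at 2.09, Ifit2 at 2.06, Oasl at 1.59 and Ifi44 at 1.10. It also differed for the called probe set at 0.87, Pigl at 2.75, Serpina3n at 2.998, Kazald1 at 0.78, Tppp3 at 1.16 and Hlf at -1.29.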

How the results depend on the processing

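The single stage call is fragile. The count was 0 without A48S and A217H, with the muscle marker mean as covariate and with the group means model. It was 0 at standard gravity only, in hypergravity only, with array weights and with eBayes trend and robust. So it was with only probe sets over 5 in at least 4 arrays and with a 2-fold minimum. In settings chosen after seeing the data, it was 0 without A42S and A56H, without A44S and A206H, without A55H and without all 7 of these arrays. Unadjusted calls, 1875 of 31042 in the main fit, then ran from 1200 to 3399. The 1200 were of the 15245 probe sets over 5 in at least 4 arrays, and the 3399 of 31042 without all 7 arrays. In the order of the settings above, the called probe set's log2 difference was -0.63, -0.63, -0.63, -0.72, -0.53, -0.65, -0.63, -0.63, -0.63, -0.62, -0.64, -0.63 and -0.59. With A210H kept, without the gravity covariate, and with repeated median or quantile scaling it remained called. Leaving out single arrays gave 0 to 2 calls and -0.69 to -0.58 for the probe set. Interaction calls were 0 in every setting run, and so were members called in the lists.

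Some genes changed sign, most of them near 0 but also Cish, Dpp4, Slc25a1, Cfd and Acaca, which stood at -0.82, 0.73, 0.61, 0.42 and -0.40; none passed the threshold in any setting. With A210H kept, Lipe stood at -0.0098, Pnpla2 at -0.15 and Ghr at -0.31. Without A48S and A217H, Lpl stood at 0.011, Fasn at -0.20, Acly at -0.017, Slc2a4 at 0.016 and Ghr at -0.066. Without gravity, Lpl was 0.0049 and Fasn -0.014; with group means, Lpl was 0.0018 and Slc2a4 0.014. At standard gravity, Fasn was -0.94, Srebf1 -0.15, Pparg 0.0071, Pdk4 -0.16 and Cish 0.040. In hypergravity, Lpl was 0.050, Acaca 0.54, Lep -0.030, Slc2a4 1.54, Insr -0.062, Lipe -0.11, Pnpla2 -0.26, Ghr -0.25, Cfd -0.0069, Ech1 -0.085 and Dpp4 -0.14. With array weights, Lpl was 0.010, Slc2a4 0.18, Pnpla2 -0.10 and Ghr -0.11. With median scaling Fasn was -0.0057, and with quantile scaling -0.0057, with Lpl at 0.012. Without A42S and A56H, Fasn was -0.054, Srebf1 -0.051, Lipe -0.0040, Pnpla2 -0.11, Pdk4 -0.37 and Ghr -0.053. Without A44S and A206H, Lpl was 0.0094, Fasn -0.096, Srebf1 -0.23 and Pnpla2 -0.073. Without A55H, Fasn was -0.16. Without the 7 arrays, Fasn was -0.83, Acly -0.31, Srebf1 -0.46, Thrsp -0.19, Lipe -0.31, Pnpla2 -0.32, Ghr -0.41, Slc25a1 -0.31, Oxct1 -0.011, Cox5a -0.073 and Cox5b -0.035. Single arrays left out moved Fasn from -0.16 to 0.21, Ghr from -0.12 to 0.14, Lpl from -0.028 to 0.022, Pdk4 from -0.23 to 0.45, Pnpla2 from -0.050 to 0.24, Slc2a4 from -0.26 to 0.18 and Srebf1 from -0.066 to 0.28. The cause was not tested.

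With the rat as replicate block, which pairs the tissues, adipose differed from liver at 460 probe sets and from mammary gland at 10106, of which 308 and 9225 were shared with the fit without it, and Abhd5, Pgd and Hmox1 passed no longer. No pairing exists within the stage comparison itself. Leaving out single rats gave 213 (without the rat of A217H) to 475 (without that of A57S) calls against liver, and the adipose minus mammary stage difference calls ran from 8467 to 10107. Kept A210H and M210H gave 258 and 8616. Signal near background limits, among others, Lep, Fgf21, Arhgap19, Bmal1 in pregnancy, Prlr in lactation and, in adipose tissue, Fads2.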
